A study of Mus musculus with 7 samples.

Results

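The genes described are 10 genes of protein folding in the endoplasmic reticulum (ER) and of the unfolded protein response (UPR), taken by name from a deposited table of 16760 mouse genes, in which all 10 were found. They are the chaperones Hspa5, Hsp90b1, Calr and Canx, the disulfide isomerases Pdia3, Pdia4 and Pdia6, and the transcription factors Xbp1, Atf4 and Ddit3. RNA was sequenced from mouse cells negative for the surface protein CD150, labelled as HSCs (haematopoietic stem cells), all of strain C57/B6. The WT group has genotype WT and 4 libraries, and the 5G2del group has a deletion in band 5G2 of chromosome 5 and 3 libraries; the labels name no treatment. Age, sex, the ends and zygosity of the deletion, and whether libraries came from separate animals were not stated in the labels. The p-values therefore measure only how far these libraries spread, which may be technical. The deletion stands as a mouse counterpart of human band 7q22, and the comparison asks which transcripts differ with it; none of the 10 genes lies on chromosome 5.

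Proteins that enter the secretory pathway fold in the ER with the help of the chaperones BiP (Hspa5) and GRP94 (Hsp90b1), of the glycoprotein-binding lectins calreticulin (Calr) and calnexin (Canx), and of isomerases that form and exchange disulfide bonds. When unfolded proteins accumulate, the membrane sensors IRE1 (Ern1), PERK (Eif2ak3) and ATF6 (Atf6) start the UPR: IRE1 splices Xbp1 mRNA, PERK phosphorylates eIF2 alpha and so favours translation of Atf4, and ATF6 is cut to release a transcription factor. Blood stem cells make little protein, and the UPR is known as one of the responses that set whether stressed stem and progenitor cells survive.

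ATF6 and XBP1 act through the ER stress response element (ERSE), which in its classical form is CCAAT, 9 further bases and CCACG. The element was looked for on both strands in RefSeq promoters of build GRCm38.p6, each from 250 bases before to 50 bases after a gene's start. Sequences for all 10 genes matched by symbol, with 1 window each. Exact ERSE letters stood in 5 of the 10 windows, those of Hspa5, Hsp90b1, Calr, Canx and Pdia6, and in 0.119% of the 32851 windows of all genes. Hsp90b1 had 2 matches. The sites are shown as a description of these 5 genes. The element is known from genes of this kind, so the matches are no independent result. They are written in the direction of the element, with its CCAAT and CCACG parts in capitals:
Hspa5: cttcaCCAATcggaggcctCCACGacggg
Hsp90b1 distal: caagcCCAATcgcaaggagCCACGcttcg
Hsp90b1 proximal: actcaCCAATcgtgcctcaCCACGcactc
Calr: atgggCCAATgagggtcgaCCACGcgttg
Canx: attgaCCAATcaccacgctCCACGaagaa
Pdia6: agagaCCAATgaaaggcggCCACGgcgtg

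Coordinates are those of the 29 bases printed, which hold 5 further bases on each side of the 19-base element, and positions are those of the element alone. The Hspa5 site lies at chr2:34772020-34772048, at positions -65 to -47 from the start and on the strand of the gene. The sites of Hsp90b1 lie at chr10:86705633-86705661, on the strand of the gene, and at chr10:86705528-86705556, on the other strand and nearer to the start. That of Calr is at chr8:84847070-84847098 on the other strand, at positions -162 to -144, and that of Canx at chr11:50325795-50325823 on the strand of the gene, at positions -145 to -127. The Pdia6 site is at chr12:17266486-17266514, at positions -98 to -80 on the strand of the gene. The whole Hspa5 window, chr2:34771840-34772139 on the plus strand, shows how close the element, in capitals, is to the start site, which follows base 250:
Hspa5 window: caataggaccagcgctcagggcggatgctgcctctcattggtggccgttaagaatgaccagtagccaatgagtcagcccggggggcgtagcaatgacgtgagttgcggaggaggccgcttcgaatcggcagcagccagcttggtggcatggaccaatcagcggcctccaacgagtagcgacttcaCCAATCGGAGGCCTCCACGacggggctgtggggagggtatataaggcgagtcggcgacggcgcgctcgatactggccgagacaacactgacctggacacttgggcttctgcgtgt

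Pdia3, Pdia4, Xbp1, Atf4 and Ddit3 had no exact ERSE in these windows. The ERSE-II form (ATTGG, 1 base, CCACG), the core of the UPR element (TGACGTGG) and the C/EBP-ATF composite site (TTGCATCA) were found in none of the 10 windows, against 0.0365%, 0.676% and 0.895% of all windows. Each ERSE match also counts as a match to its CCAAT and CCACG parts, which alone occur in 37.4% and 32.8% of windows. A match describes letters and not binding.

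The libraries were deep enough to measure every one of the 10 genes, with between 148 expected counts for Ddit3 and 24330 for Hspa5 in a library. Expected counts summed to between 37930174 and 52194274 per library. WT-B had 1104 genes at 0 counts, where the other libraries had 83 to 492. Mitochondrially encoded genes took 25.1% to 29.9% of expected counts in 5G2del and 27.7% to 35.9% in WT. Summed stem and progenitor surface markers (Kit, Ly6a, Flt3, Cd34 and others, all 8 measured and none at 0) overlapped between the groups, at 1251 to 1378 CPM (counts scaled to library size) in 5G2del and 1222 to 1392 in WT. Slamf1 and Cd48, the least abundant markers of that list and named after their values were seen, had its largest differences. Slamf1, which encodes CD150 itself, was at 0.40, 0.63 and 0.65 log2 CPM in 5G2del and at -0.29, -1.62, -2.22 and -0.26 in WT, without overlap (1.66 ± 0.75, SE; limma unadjusted p = 0.0504; exact permutation p = 0.0857). It had as few as 7 expected counts in a library, and 2.92% of all genes were likewise without overlap and higher in 5G2del. Cd48 had a log2 fold change of 0.99 ± 0.42 (SE; limma unadjusted p = 0.0372; exact permutation p = 0.143). Of the 8 markers, 6 were higher in 5G2del, while Ly6a (-0.42 ± 0.31, SE) and Flt3 (-0.20 ± 0.24, SE) were lower. Libraries are named by group and letter, since the columns carry no sample number.

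Levels are given as log2 CPM, and compared between genes as log2 CPM per kb of exon in the GENCODE M21 annotation of mm10. On that scale Hspa5, the master chaperone of the ER lumen, was highest at 6.60 ± 0.36 (SD, n = 7) and above every other of the 10 genes on average. Canx at 5.72, Hsp90b1 at 5.72 and Calr at 5.71 came next. These 3 could not be told apart: Canx was above Hsp90b1 in 4 of 7 libraries, and Hsp90b1 above Calr in 4 of 7. Atf4 at 5.31 and Pdia3, the isomerase that works with the lectins, at 5.24 were likewise not separated, with Atf4 higher in 3 of 7 libraries. Xbp1 followed at 4.29, below Pdia3 in all 7 libraries, then Pdia6 at 3.97, which was below Xbp1 in 6 of 7. Pdia4, at 3.33, was below Pdia6 in all 7 libraries. Ddit3, which encodes the pro-apoptotic factor CHOP, was lowest at 1.69 and below Pdia4 in all 7. Pdia4 and Pdia6, both isomerases of the BiP and GRP94 machinery, were thus less abundant per length than Pdia3.

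Between the groups, all 10 genes had higher means in 5G2del than in WT, but the libraries overlapped for 9 of them and no gene passed the test. Log2 fold changes, 5G2del minus WT, ran from 0.065 for Canx to 0.44 for Hspa5, with a median of 0.23. Across all genes tested 53.3% had a higher mean in 5G2del, with a median of 0.03. At an adjusted p under 0.05 (limma-trend, Benjamini-Hochberg over all genes) 0 of 10 genes were called, beside 0.0% of the table, and the adjusted p of each was 0.989. Over the table, 656 genes had an unadjusted p under 0.05 and the lowest adjusted p was 0.151; voom weights called 0 genes and limma without the variance trend 1. At an unadjusted p under 0.05 the count was 0 of 10, beside 1.68% of all genes called higher and 2.24% called lower. The groups did not overlap for 1 of 10, Ddit3, beside 2.92% of all genes without overlap and higher in 5G2del. The direction was not held by all 10 under every setting. With mitochondrially encoded genes left out of the scaling, 8 were higher and 2 (Canx and Atf4) lower, with a median of 0.14. The share of all genes that were higher then fell to 43.9% and their median to -0.06. That setting also replaced the library sizes implied by the deposited values with plain sums of the remaining counts. Its 2 steps were not separated. Without WT-C, 8 were higher and 2 (Canx and Pdia6) lower, with a median of 0.13. In bulk RNA, fewer cells of a type and less RNA per cell cannot be told apart.

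**Figure D1:**
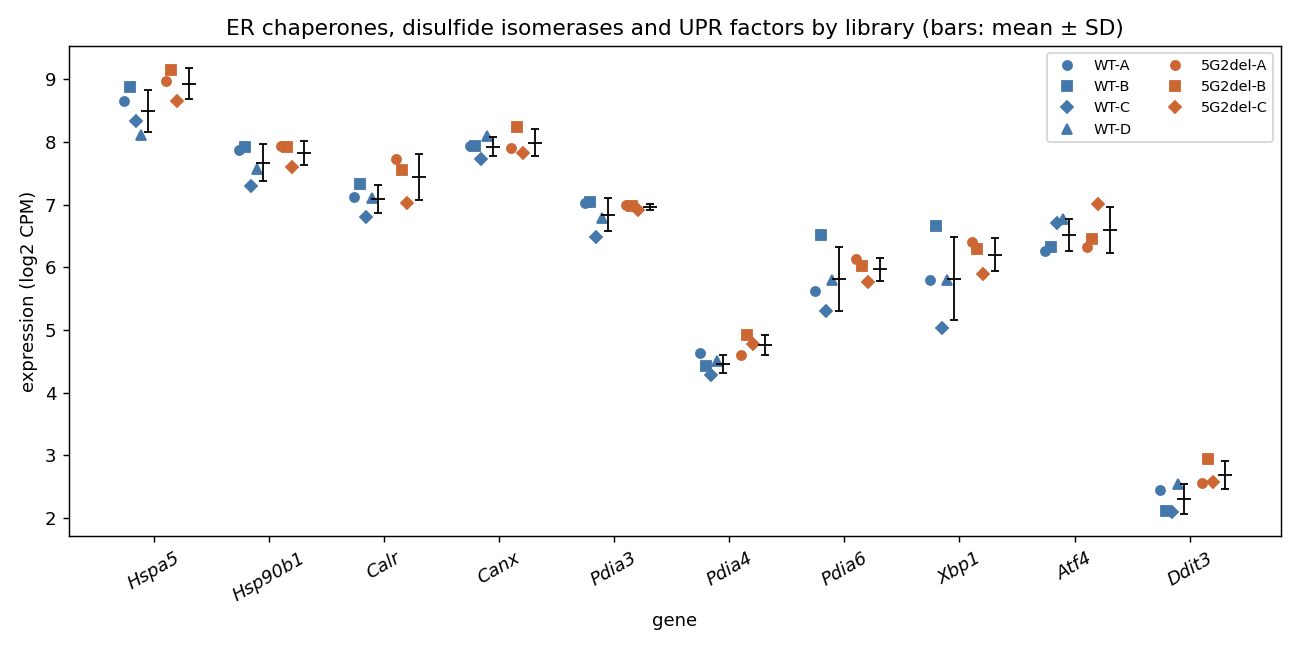
Expression in log2 CPM (vertical axis) of the 10 genes (horizontal axis) in the 4 WT libraries (blue) and the 3 5G2del libraries (orange), 1 symbol per library, with mean ± SD of each group in black. The groups overlap for every gene but Ddit3, and WT-C (blue diamond) is the lowest library for 8 of the 10 genes.

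Hspa5 had the largest difference of the 10. Its log2 CPM, in the order A, B, C of the 5G2del libraries, was 8.98, 9.15 and 8.66. In WT, in the order A to D used throughout, it was 8.65, 8.87, 8.33 and 8.11. Only WT-B lay above the lowest 5G2del library, and 5G2del-C was level with WT-A. The log2 fold change was 0.44 ± 0.20 (SE), which is 1.355-fold with a 95% interval from 0.995 to 1.844 (limma unadjusted p = 0.0533; exact permutation p = 0.114). The authors' deposited table gives the same log2 fold change, 0.44, with an unadjusted p of 0.0469 and an adjusted value of 0.990 in limma, next to the exact test above. Over 14 other settings the value ran from 0.31 to 0.57 and its unadjusted p was under 0.05 in 5.

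Hsp90b1, the ER form of HSP90, which folds Toll-like receptors and integrins, differed less. It measured 7.93, 7.93 and 7.59 log2 CPM in the 5G2del libraries, against 7.88, 7.92, 7.30 and 7.57 in WT. WT-B was level with the upper 5G2del libraries, WT-A was just below them, and WT-C and WT-D were the lowest of the 7. The log2 fold change was 0.15 ± 0.18 (SE), with a 95% interval from -0.25 to 0.55 (limma unadjusted p = 0.429; exact permutation p = 0.400), and 0.027 without WT-C.

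The lectin chaperones Calr and Canx, which hold newly made glycoproteins, are set side by side. Calr, the soluble form, was at 7.74, 7.55 and 7.03 log2 CPM in the 5G2del libraries, and at 7.13, 7.33, 6.80 and 7.10 in WT. The libraries 5G2del-A and 5G2del-B were above all WT libraries, but 5G2del-C was below 3 of the 4. Its log2 fold change was 0.35 ± 0.20 (SE; 95% interval -0.080 to 0.78; limma unadjusted p = 0.101; exact permutation p = 0.200), from 0.20 without 5G2del-A to 0.55 without 5G2del-C. Canx, the membrane-bound form, was at 7.91, 8.23 and 7.83 log2 CPM in 5G2del and at 7.93, 7.94, 7.72 and 8.10 in WT. The groups of Canx were interleaved, with 3 WT libraries above the lowest 5G2del library. Its log2 fold change of 0.065 ± 0.16 (SE; 95% interval -0.28 to 0.41; exact permutation p = 0.657) turned to -0.057 without 5G2del-B. Whether Calr and Canx differed in their response was not tested.

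Among the disulfide isomerases, Pdia4 had the largest difference. It was at 4.59, 4.92 and 4.78 log2 CPM in the 5G2del libraries, and at 4.63, 4.43, 4.28 and 4.50 in WT. Only WT-A reached into the 5G2del range, above 5G2del-A alone. The log2 fold change was 0.30 ± 0.19 (SE; 95% interval -0.11 to 0.71; limma unadjusted p = 0.133; exact permutation p = 0.0857), and it stayed between 0.22 and 0.39 over the other settings.

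Pdia3, the partner of Calr and Canx, was tight in 5G2del, at 7.00, 6.98 and 6.91 log2 CPM, and spread in WT, at 7.03, 7.05, 6.49 and 6.79. WT-A and WT-B were above all 5G2del libraries, and WT-C was far below. The log2 fold change of Pdia3 was 0.13 ± 0.17 (SE; 95% interval -0.24 to 0.49; exact permutation p = 0.543), and 0.010 without WT-C. Pdia6, an isomerase that also limits IRE1 signalling, was at 6.13, 6.02 and 5.77 log2 CPM in 5G2del and at 5.62, 6.52, 5.31 and 5.80 in WT. Its highest and its lowest library were both WT, WT-B and WT-C. The log2 fold change of Pdia6 was 0.16 ± 0.25 (SE; 95% interval -0.40 to 0.72; exact permutation p = 0.629), 0.40 without WT-B and -0.0084 without WT-C.

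Of the transcription factors, Xbp1 varied most from library to library. It was at 6.41, 6.30 and 5.90 log2 CPM in the 5G2del libraries, and at 5.80, 6.65, 5.04 and 5.80 in WT. All 5G2del libraries were above WT-A, WT-C and WT-D and below WT-B, so that 1 WT library decided the overlap. The log2 fold change was 0.38 ± 0.31 (SE; 95% interval -0.30 to 1.06; limma unadjusted p = 0.243; exact permutation p = 0.457), 0.66 without WT-B and 0.12 without WT-C. These are gene-level values, in which spliced and unspliced Xbp1 mRNA are summed.

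Atf4, whose protein is set mainly by translation, was at 6.32, 6.44 and 7.01 log2 CPM in 5G2del and at 6.26, 6.32, 6.71 and 6.77 in WT. Its order of libraries was unlike that of the chaperones, with 5G2del-C highest, then WT-D and WT-C. The log2 fold change of Atf4 was 0.074 ± 0.21 (SE; 95% interval -0.38 to 0.53; exact permutation p = 0.80), and -0.14 without 5G2del-C. Ddit3 was at 2.56, 2.95 and 2.57 log2 CPM in 5G2del and at 2.45, 2.11, 2.09 and 2.55 in WT. Every 5G2del library was above every WT library, but 5G2del-A and WT-D were nearly level. The log2 fold change of Ddit3 was 0.39 ± 0.31 (SE; 95% interval -0.29 to 1.08; limma unadjusted p = 0.235; exact permutation p = 0.0571). The lack of overlap was lost when libraries were centred on their medians. It was also lost when mitochondrially encoded genes were left out of the scaling, with plain sums of the remaining counts as library sizes. Exons of Ddit3 overlap those of Mars and Gm4189 on the other strand, and strand is not stated for the counting, so their reads cannot be told apart there. The same holds for Pdia3 with Catsper2 and for Hsp90b1 with 1810014B01Rik, each on the other strand, and for Hsp90b1 with Gm15344 on its own strand.

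**Figure D2:**
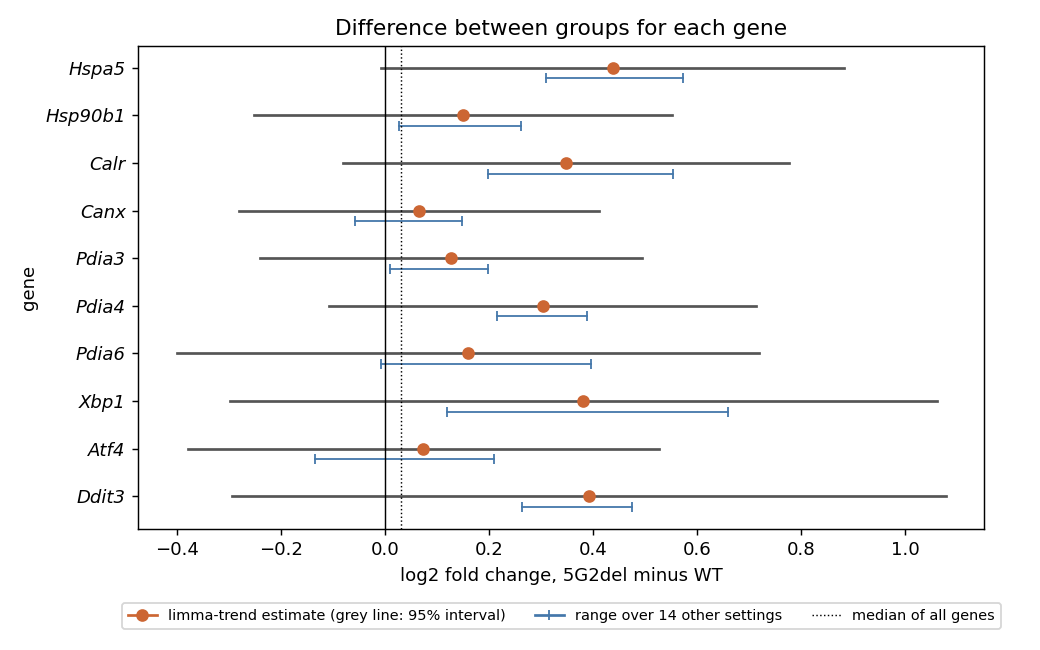
Log2 fold change, 5G2del minus WT (horizontal axis), for each gene (vertical axis), as the limma-trend estimate (orange point) with its 95% interval (grey line) and the lowest and highest estimate over 14 other settings (blue). Every 95% interval includes 0, that of Hspa5 from -0.0073 to 0.88, and the dotted line marks the median of all genes at 0.03.

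Across libraries the 7 chaperones and isomerases tended to be high and low in the same libraries, an order that rested in part on WT-C. Their mean log2 CPM was 7.18, 7.25 and 6.94 in the 5G2del libraries A to C, and 6.98, 7.15, 6.60 and 6.85 in the WT libraries A to D. The mean was therefore highest in 5G2del-B and lowest in WT-C, with WT-B above 5G2del-C. WT-C was lowest for 6 of the 7 and WT-D for Hspa5, and the top library was 5G2del-A, 5G2del-B or WT-B for each. As a description across 7 libraries, the 21 pairs of chaperones had Pearson correlations from 0.19 to 0.94 with a median of 0.59 (Spearman median 0.54). These points share library, depth and scaling, and without WT-C the pairs ran from -0.39 to 0.88 (median 0.44), with 19 of 21 positive. Without that library the Spearman median was 0.31, with 16 of 21 positive. The pair of Xbp1 and Pdia6 had 0.96 with all libraries and 0.96 without WT-C. Atf4 had a negative correlation with 6 of the 7 chaperones, and the 3 libraries highest for Atf4 (5G2del-C, WT-D and WT-C) were the 3 lowest for 3 of the 7, Hsp90b1, Calr and Pdia3. The median Pearson correlation with Atf4 was -0.548 with all libraries and -0.515 without WT-C. By Spearman it was -0.357 with all libraries and -0.143 without WT-C, with 5 of 7 negative.

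The mitochondrial share of the libraries went partly with this order. Mitochondrially encoded genes took 35.9% of expected counts in WT-C, the library lowest in chaperones, and 25.1% in 5G2del-B, the highest. WT-A, at 34.4%, had a chaperone mean in the middle of the 7. With these genes left out of the scaling, and plain sums of the remaining counts as library sizes, Hspa5 had a log2 fold change of 0.35 ± 0.25 (SE). That of Calr was 0.26 ± 0.25 (SE).

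Markers of granulocytic and of antibody-secreting cells were also uneven. Early granule markers (Mpo, Elane, Prtn3 and others, 6 of 6 measured) summed to 3816 CPM in 5G2del-A and 1422 CPM in WT-A, and to between 383 and 560 CPM in the other libraries. Their ranges were 383 to 3816 CPM in 5G2del and 420 to 1422 CPM in WT, with Ctsg and Ms4a3 at 0 in at least 1 library. The library with the lowest sum, 5G2del-B, had the highest chaperone mean, and that with the highest sum, 5G2del-A, the next highest. Late neutrophil markers, 9 of 12 measured, summed to 15.1 to 1408 CPM in 5G2del and 3.97 to 387 CPM in WT, with Lcn2, Ltf, Chil3, Cebpe and Fcnb at 0 in at least 1 library. Of B cell and plasma cell markers, 10 that were measured summed to 71.4 to 588 CPM in 5G2del and 48.3 to 153 CPM in WT, with Ebf1, Igkc, Iglc1, Mzb1 and Igll1 at 0 in at least 1 library. Of the 10, 7 had a higher mean in 5G2del. The others were lower: Ebf1 (-0.71 ± 1.90, SE), Sdc1 (-0.44 ± 0.30, SE) and Prdm1 (-0.38 ± 0.61, SE). The sums were 588, 71.4 and 382 CPM in 5G2del-A, B and C, whose chaperone means were 7.18, 7.25 and 6.94 log2 CPM. Jchain, which joins secreted antibodies, is named after its values were seen, and was at 5.02, 1.92 and 5.17 log2 CPM in 5G2del and at 1.74, 1.12, -0.57 and -4.28 in WT. Its groups did not overlap (4.53 ± 1.29, SE; limma unadjusted p = 0.00473; exact permutation p = 0.0571), beside 2.92% of all genes without overlap and higher in 5G2del. Igkc, an antibody light chain also named after its values were seen, was at 7.50, 3.15 and 6.84 log2 CPM in 5G2del and at 3.44, 2.47 and -3.32 in WT-A, WT-B and WT-C, and was listed at 0 in WT-D.

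Megakaryocyte markers (7 of 8 measured) summed to at most 47.7 CPM in 5G2del and 38.0 CPM in WT. Of the 7, 5 were higher in 5G2del and 2 lower (median log2 fold change 0.53). Treml1, named after its values were seen, had the largest difference of them. It was at 0 in WT-B and WT-D and above all WT libraries in each 5G2del library. Of all genes, 2.92% were without overlap and higher in 5G2del. Sums of dendritic cell markers (6 of 8) were 297 to 451 and 307 to 528 CPM, those of T and NK cells (5 of 10) 10.7 to 12.1 and 11.3 to 14.6 CPM, and those of macrophages and stroma (10 of 12) 53.3 to 84.0 and 63.8 to 90.2 CPM. The part of the mitochondrial share and of all these markers in the differences of the chaperones was not tested.

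**Figure D3:**
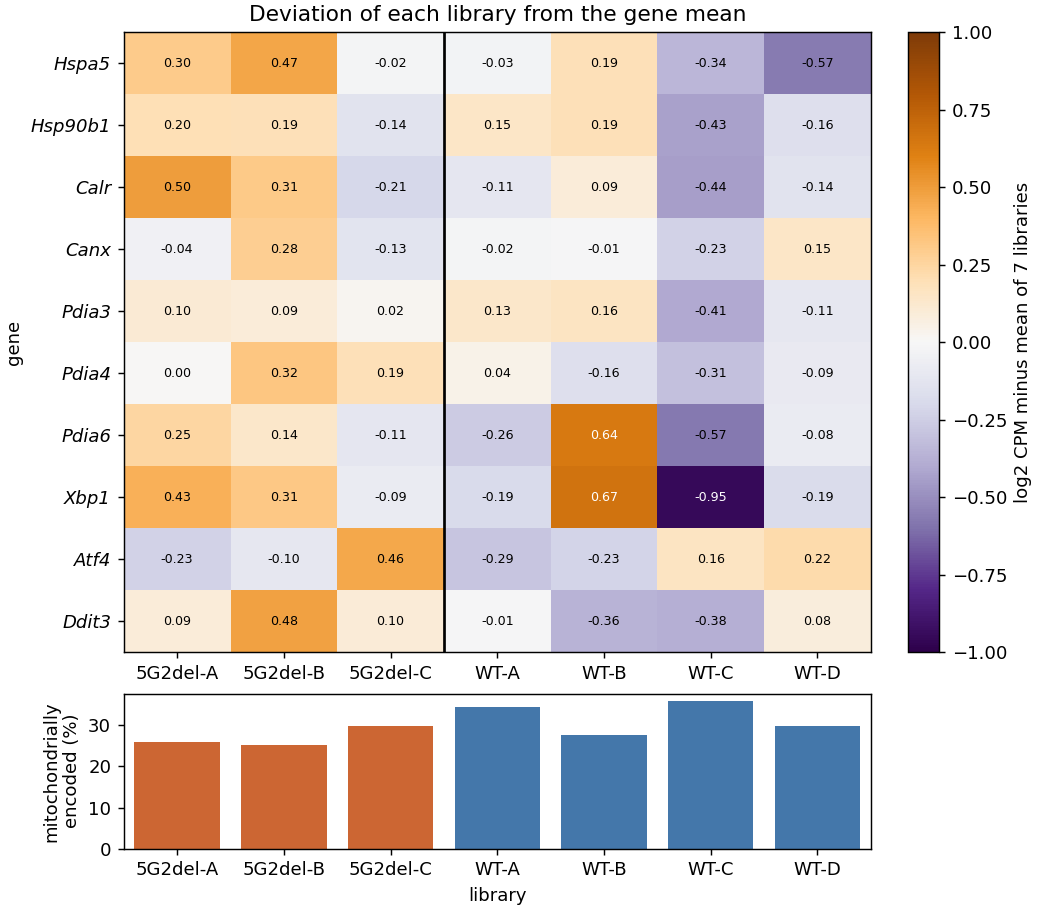
Top, deviation of each library (columns) from the mean of the gene over 7 libraries, in log2 CPM, for the 10 genes (rows); orange is above the mean and purple below. Bottom, percent of expected counts from mitochondrially encoded genes in the same libraries, highest in WT-C (35.9%), where 8 of the 10 genes are at their lowest.

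The 10 expressed genes whose libraries followed the chaperones most closely were found by Pearson correlation with the mean standardised level of the 7, across 7 libraries and among 6344 other genes with a mean log2 CPM over 4. They were Trmt61a, a tRNA methyltransferase subunit (0.97), Zfp629, a zinc finger protein (0.97), Rrp1b, a nucleolar protein (0.97), Tmem165, a Golgi ion transporter needed for glycosylation (0.97), Gnb1, a G protein subunit (0.96), Slc35c1, the Golgi GDP-fucose transporter (0.96), Eno1, a glycolytic enzyme (0.96), Sf1, a splicing factor (0.95), Usp10, a deubiquitinase (0.95), and Sec61a1, the pore of the ER translocon (0.95). Of all genes compared, 3.52% had a correlation over 0.8. The share was 4 of 17 for glycan processing genes, 3 of 10 for ATF4 and CHOP target genes and 2 of 9 for BiP cochaperones. It was 1 of 22 for the translocon and signal recognition and 0 of 25 for ER-associated degradation. Other isomerases and oxidases had 0 of 13, cytosolic heat shock chaperones 0 of 12 and prolyl isomerases 0 of 5. UPR sensors, other eIF2 alpha kinases and mitochondrial chaperones each had 0 of 8. In lists this small, a count of 0 cannot be told apart from the share over all genes.

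The other genes of the pathway were described from 11 lists by role. No gene of any list passed adjusted p 0.05 in limma-trend over all genes, and list medians ran from -0.07 to 0.27, beside 0.03 for all genes. Genes named below as without overlap of the groups stand beside 2.92% of all genes without overlap and higher in 5G2del. No such share is given for genes lower in 5G2del. Another setting left mitochondrially encoded genes out of the scaling and used plain sums of the remaining counts. There the medians of ER-associated degradation (-0.034) and of translocon and signal recognition (-0.0011) turned below 0. Those of glycan processing (0.089), prolyl isomerases (0.049), UPR sensors (-0.14), eIF2 alpha kinases (-0.16) and heat shock chaperones (0.072) moved by over 1.5 times.

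BiP depends on J-domain proteins that load clients and on factors that exchange its nucleotide. Of 12 such genes measured of 12 listed, 8 were higher and 4 lower (median 0.09), with none at an unadjusted p under 0.05. The median was 0.0044 without 5G2del-B, 0.029 without WT-B and 0.00073 without mitochondrially encoded genes in the scaling. Dnajb11, a lumenal J-domain cochaperone, had a log2 fold change of 0.34 ± 0.18 (SE). Hyou1, the large exchange factor of BiP, had 0.35 ± 0.24 (SE), with WT-C lowest at 4.10 log2 CPM and the other 6 libraries from 4.69 to 5.15. Sdf2l1, a stress-induced partner of BiP, ranged from 1.51 log2 CPM in WT-C to 4.00 in WT-B, with 3.99, 3.85 and 2.76 in 5G2del, and had 0.83 ± 0.52 (SE). Dnajb9, an XBP1 target that restrains IRE1, lay the other way at -0.15 ± 0.20 (SE), with WT-C highest at 5.37 log2 CPM.

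The other isomerases and oxidases split, with 8 of 18 higher and 10 lower (median -0.06), 1 of them higher and 1 lower at an unadjusted p under 0.05. The median turned to 0.024 without WT-A and 0.047 without WT-B, and was -0.097 when WT-D was left out, -0.024 when WT-C was, and -0.15 without mitochondrially encoded genes in the scaling. P4hb, the most abundant protein disulfide isomerase, was at 8.13, 7.99 and 8.13 log2 CPM in 5G2del and at 7.90, 7.81, 7.46 and 7.76 in WT. Its groups did not overlap, and its log2 fold change was 0.35 ± 0.15 (SE; limma unadjusted p = 0.0389; exact permutation p = 0.0571). Qsox1, a sulfhydryl oxidase of the Golgi, was the lower one. It was at 2.91, 2.97 and 2.94 log2 CPM in 5G2del and at 3.72, 3.54, 3.52 and 3.52 in WT, again without overlap. The share of all genes without overlap and lower in 5G2del is not given. The log2 fold change of Qsox1 was -0.64 ± 0.23 (SE; limma unadjusted p = 0.0191; exact permutation p = 0.0286, the smallest that 3 against 4 libraries allow). Ero1lb, which reoxidises the isomerases, had -0.32 ± 0.26 (SE).

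Genes of N-glycan transfer and trimming were higher in 17 of 21 (median 0.18, and 0.070 without WT-C), with none at an unadjusted p under 0.05. Ostc, a subunit of the oligosaccharyltransferase, had a log2 fold change of 0.39 ± 0.18 (SE), Alg8, a glucosyltransferase of the lipid-linked donor, 0.40 ± 0.22 (SE), and Mcfd2, a partner of the cargo receptor LMAN1, 0.27 ± 0.16 (SE). The groups of Ostc and Mcfd2 did not overlap, and these were the only 2 such genes of the list, beside 2.92% of all genes. Prolyl isomerases and client-specific chaperones were higher in 8 of 10 (median 0.14). Leaving out 5G2del-A gave a median of 0.31, leaving out WT-C 0.28 and leaving out 5G2del-C 0.039. Log2 fold changes were for Fkbp2 0.55 ± 0.31 (SE), for Ppib 0.28 ± 0.20 (SE) and for Ppic 0.20 ± 0.22 (SE). Fkbp11, at a mean of 1.88 log2 CPM and named after its values were seen, had the largest difference of the list. It was at 2.04, 2.83 and 2.77 log2 CPM in 5G2del and at 0.19, 2.13, 0.96 and 2.25 in WT. Its log2 fold change was 1.17 ± 0.54 (SE; limma unadjusted p = 0.0533; exact permutation p = 0.171).

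Of 11 genes of the UPR sensors and their processing, 4 were higher and 7 lower in 5G2del (median -0.06), and none had an unadjusted p under 0.05. The median was 0.00024 without 5G2del-B, -0.023 without 5G2del-A and -0.018 without WT-A. Ern1 was at 5.72, 5.54 and 7.07 log2 CPM in 5G2del and at 6.68, 6.44, 6.06 and 6.47 in WT, so that its lowest and its highest libraries were all 5G2del. Its log2 fold change was -0.30 ± 0.32 (SE). Atf6 had -0.26 ± 0.19 (SE), and Eif2ak3 had 0.15 ± 0.30 (SE), which turned to -0.072 without 5G2del-C. Rtcb, the ligase that joins the cut Xbp1 mRNA, was at 6.64, 6.82 and 7.01 log2 CPM in 5G2del and at 6.48 to 6.60 in WT, without overlap, at 0.29 ± 0.15 (SE). Mbtps1, a protease that cuts ATF6, had 0.18 ± 0.16 (SE).

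Of the other eIF2 alpha kinases and phosphatase subunits, 3 of 8 were higher and 5 lower (median -0.07). Leaving out 5G2del-B turned the median to 0.0058, and it was -0.21 without WT-D, -0.11 without WT-A, and -0.12 without either WT-C or 5G2del-C. Impact, an inhibitor of the kinase GCN2, had -0.26 ± 0.19 (SE), Eif2ak2, the double-stranded RNA kinase PKR, -0.23 ± 0.17 (SE), and Eif2ak4, which is GCN2, -0.27 ± 0.21 (SE). Ppp1r15a, the stress-induced phosphatase subunit GADD34, was at 5.54 to 6.39 log2 CPM in 5G2del and 5.16 to 6.82 in WT, with 0.054 ± 0.36 (SE).

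Targets of ATF4 and CHOP were higher in 18 of 24 measured of 27 listed (median 0.27), with 1 higher and 1 lower at an unadjusted p under 0.05. The median was 0.061 without 5G2del-B and 0.13 without WT-C or WT-D. Psat1, of serine synthesis, had 0.46 ± 0.21 (SE), and Slc7a1, an amino acid transporter, 0.39 ± 0.26 (SE). Mthfd2, of mitochondrial folate metabolism, is named here after its values were seen. It was at 2.44, 3.11 and 2.88 log2 CPM in 5G2del and at 2.46, -0.40, 1.13 and 1.02 in WT, a log2 fold change of 1.755 ± 0.59 (SE; limma unadjusted p = 0.0128; exact permutation p = 0.0857). Bcl2l11, which encodes the pro-apoptotic protein BIM, was at 3.82, 3.40 and 3.55 log2 CPM in 5G2del and at 4.60, 4.10, 4.02 and 4.46 in WT. Its groups did not overlap, but the share of all genes without overlap and lower in 5G2del is not given. The log2 fold change of Bcl2l11 was -0.70 ± 0.23 (SE; limma unadjusted p = 0.0115; exact permutation p = 0.0286, the smallest possible here). Stress-inducible targets varied within both groups. Asns, asparagine synthetase, spanned 3.87 to 4.87 log2 CPM across 5G2del and 3.05 to 4.73 across WT (0.36 ± 0.43, SE), and Trib3, an inhibitor of AKT and ATF4, 0.87 to 1.48 and 1.05 to 2.83 (-0.69 ± 0.50, SE). Chac1, a glutathione-degrading enzyme, spanned -1.11 to 0.45 across 5G2del and -2.95 to 2.54 across WT, with as few as 4 expected counts.

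ER-associated degradation returns misfolded proteins to the cytosol for the proteasome. Of 32 genes measured of 33 listed, 24 were higher and 8 lower (median 0.05). This median was 0.0037 without WT-C, 0.089 without 5G2del-A and 0.12 without WT-B. Rnf185, a ubiquitin ligase of the ER membrane, was the only one with an unadjusted p under 0.05, at 2.503, 3.53 and 2.78 log2 CPM in 5G2del and 4.08, 4.50, 3.78 and 3.24 in WT, a log2 fold change of -0.96 ± 0.35 (SE; limma unadjusted p = 0.0184; exact permutation p = 0.0857). Edem1, a mannosidase-like XBP1 target, had 0.45 ± 0.32 (SE), Aup1 0.27 ± 0.18 (SE) and Herpud1, a stress-induced part of the retrotranslocation complex, 0.032 ± 0.19 (SE).

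Of 23 genes of the translocon and signal recognition particle, 16 were higher and 7 lower (median 0.09), with none at an unadjusted p under 0.05. It was 0.041 without WT-A, 0.13 without 5G2del-A and 0.16 without WT-B. Ssr2, a translocon-associated subunit, had 0.39 ± 0.18 (SE) and Spcs2, of the signal peptidase, 0.30 ± 0.16 (SE). Both were without overlap of the groups, beside 2.92% of all genes without overlap and higher in 5G2del. Srp14, of the signal recognition particle, had 0.45 ± 0.23 (SE).

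Chaperones of other compartments were read the same way. Cytosolic heat shock chaperones were higher in 12 of 15 (median 0.16, and 0.040 without 5G2del-B), with Hspa8, the constitutive HSP70, at 0.31 ± 0.19 (SE), Stip1 at 0.34 ± 0.22 (SE) and St13 at 0.23 ± 0.18 (SE). The median of the mitochondrial chaperones was 0.10, and -0.028 without 5G2del-B, 0.012 without WT-C, 0.18 without 5G2del-A, 0.21 without WT-B and 0.013 without mitochondrially encoded genes in the scaling. Of these genes 7 of 8 were higher, with 1 at an unadjusted p under 0.05, Grpel1, the exchange factor of mitochondrial HSP70 (0.62 ± 0.26, SE; limma unadjusted p = 0.0376; exact permutation p = 0.143). Clpp, a mitochondrial protease, had 0.35 ± 0.30 (SE) and Hspd1, which is HSP60, 0.13 ± 0.17 (SE). No difference between lists was tested.

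**Figure D4:**
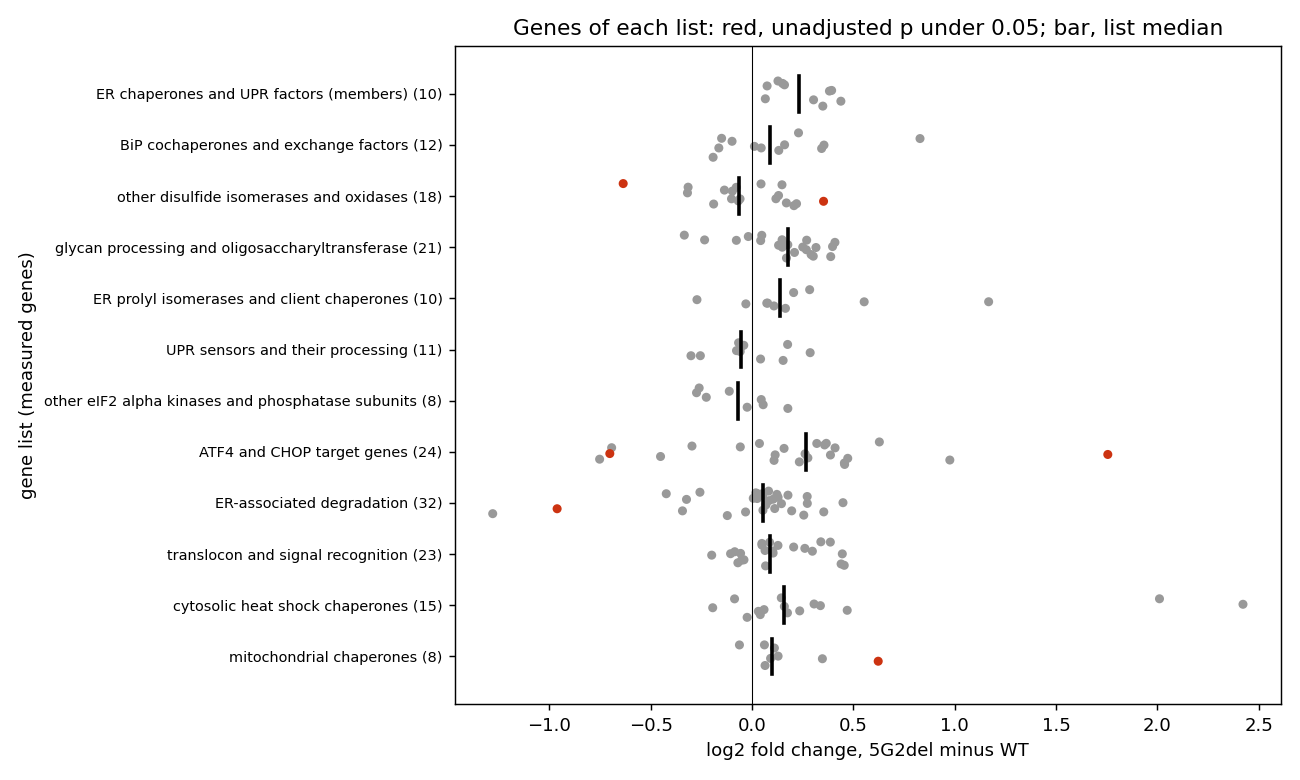
Log2 fold change, 5G2del minus WT (horizontal axis), of each measured gene in the 10 genes described here and in 11 lists of the pathway by role (rows, with the number of genes measured); red points have an unadjusted p under 0.05, and black bars are list medians. List medians lie between -0.07 and 0.27, and the red points are Qsox1, P4hb, Bcl2l11, Mthfd2, Rnf185 and Grpel1.

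The fold changes were also set against the ERSE sites shown above. The 5 genes with a match had log2 fold changes of 0.44 (Hspa5), 0.35 (Calr), 0.16 (Pdia6), 0.15 (Hsp90b1) and 0.065 (Canx), and the 5 without had 0.39 (Ddit3), 0.38 (Xbp1), 0.30 (Pdia4), 0.13 (Pdia3) and 0.074 (Atf4). Over the table, 20 of 10798 genes with a matched promoter held an exact ERSE, and 13 of these 20 were higher in 5G2del, 5 of them genes described above. Of the other 15, 8 were higher (53.3%, median 0.0023), beside 53.1% of the genes without the element. Among the other lists, an exact ERSE stood in the promoters of Dnajc3, Creld2, Syvn1 and Derl3, which were named for this match and not by their values. Their log2 fold changes were -0.16 ± 0.18, 0.15 ± 0.30, 0.05 ± 0.33 and -1.28 ± 1.14 (SE).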

How the data were processed

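Total RNA of CD150-negative mouse cells was prepared with a Zymo microprep kit, made into libraries with the Ovation system and read from both ends, per the labels' protocols. The authors deposited log2 CPM for 7 libraries and 16760 genes, with a log2 fold change, t score, p-value and q-value per gene. The submitters' processing notes name STAR (2.7.9a), RSEM (1.3.0) and limma (3.50.3), and builds mm10 and GRCh38 without a role. Annotation, low-value filter and scaling were not stated. The library sizes that the deposited values imply differed from the sums of expected counts, at 34865420 against 42038974 in WT-C. Expected counts were rebuilt from the deposited log2 CPM with an offset of 0.5 count; 71.5% were whole within 0.01, so a count model was not used.

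Groups were compared by limma 3.58.1 (R 4.3.3) with a variance trend and no covariate, adjusted by Benjamini-Hochberg over all genes, after a check on simulated data. Single values were also tested by exact permutation, two-sided, over all 35 assignments of the libraries (smallest p 0.0286). Ambiguous reads are shared out by RSEM, and whether counting used strand is unknown. The genes and lists were chosen with earlier results of these data known. Named genes are the 3 of lowest p per list with a mean log2 CPM over 2, 12 fixed genes and the 10 most like the chaperones. Exon lengths came from GENCODE M21, which held all but 12 genes of the table. In all 14 alternatives were run. That without mitochondrially encoded genes in the scaling also used plain sums of the remaining counts as library sizes. The erythroid marker list and 1 of the B cell and plasma cell markers are not reported here.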

Additional observations from a re-analysis of the deposited data

Results flagged for a closer look

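Of 61 named genes examined in the 4 WT libraries, 1 had a library apart from the other 3. Qsox1 was at 3.72 log2 CPM in WT-A, above 3.52 to 3.54 in the other WT libraries, and this gap was large because those 3 lay close together. Such a check finds about 1 in 20 groups by chance.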

How the results depend on the processing

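No paired analysis was possible because the columns of the table carry no replicate number of the labels. No gene of the 10 passed adjusted p 0.05 under any of the 14 alternatives, and the sign of 7 of the 10 held in all of them. Over all genes, 1 passed without the variance trend, and between 0 and 1 with 1 library left out. Of the 10 genes, 1 (Hspa5) had an unadjusted p under 0.05 with voom weights and 1 with genes of a mean log2 CPM over 2 alone, and between 0 and 2 with 1 library left out: Hspa5 and Calr without 5G2del-C, Hspa5 and Xbp1 without WT-B, Hspa5 without WT-A. Among all 16760 genes, 980 had such a p without WT-B, 749 without WT-A and 464 without 5G2del-C. The number was 625 with voom weights, beside 656 in the main fit. With genes of a mean log2 CPM over 2 alone, it was 420 of 10358. Of the 10 genes, those without overlap of the groups numbered 0 with centred libraries and 0 without mitochondrially encoded genes in the scaling. Of the same 10, they numbered between 1 and 4 with 1 library left out (4 without 5G2del-C, 3 without WT-B, 2 without 5G2del-A or WT-A). With a library left out, a lack of overlap is easier for any gene to reach. No share over all genes is given for these settings, so these counts have no background to be read against. Without mitochondrially encoded genes in the scaling, and with plain sums as library sizes, some log2 fold changes turned. These were Canx (-0.022), Atf4 (-0.014), Herpud1 (-0.056), Ppp1r15a (-0.033) and Sf1 (-0.027). With a pseudocount of 1 CPM, that of Chac1 turned (-0.12). With 1 library left out, Canx ran from -0.057 to 0.15, Atf4 from -0.14 to 0.21, Pdia6 from -0.0084 to 0.40, Herpud1 from -0.083 to 0.18, Ppp1r15a from -0.19 to 0.38, Hspd1 from -0.029 to 0.23, Eif2ak3 from -0.072 to 0.29 and Chac1 from -0.23 to 1.60. Their causes were not tested. With 3 and 4 libraries, every one of the 10 intervals (95%) included 0.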

Other observations

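The inducible cytosolic HSP70 genes varied far more between libraries than any ER chaperone, and are named here after their values were seen. Hspa1a had 1.00, 5.08 and 2.09 log2 CPM in the 5G2del libraries A to C, and 3.34, -1.60, -1.88 and 3.00 in the WT libraries A to D. Hspa1b, a near-identical neighbour with which it may share reads, was at 1.04, 4.89 and 2.49 in 5G2del and at 2.33, 0.49, -3.64 and 2.36 in WT. Both were highest in 5G2del-B, the library that was also highest for Hspa5, Canx, Pdia4 and Ddit3.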
